A study of Mus musculus with 48 samples.

Results

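The comparison described here concerns 6 mice killed 72 h after their last exposure to chronic intermittent ethanol (CIE). They were set against 6 control (Ctrl) mice killed at the same hour. The 12 arrays were taken by their titles from the 48 of the series, which also holds 12 arrays each at 0 h, 8 h and 7 d. All 48 mice were adult males of the inbred strain C57BL/6J, with 1 hippocampus (HPC) array per mouse and no genetic modification stated.

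CIE mice inhaled ethanol vapor, held between 10 and 13 mg per litre of air, for 16 h on each of 4 days. The mice went through 4 cycles, with 7 days of abstinence between one exposure and the next. Harvest times count from removal from the chambers after the last exposure. Each cycle began with injected ethanol (1.6 g/kg) and pyrazole (1 mmol/kg), which blocks alcohol dehydrogenase. Ctrl mice sat in chambers with air and received saline with the same pyrazole, so pyrazole and handling were common to both groups. Each mouse was killed once, so harvests were compared between different animals of 1 strain and 1 sex.

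Repeated cycles of ethanol vapor and withdrawal are used in rodents to model dependence. Withdrawal activates the stress axis, and the corticosterone it releases acts on hippocampal neurons and glia through glucocorticoid receptors. Ethanol also acts on GABA-A receptors, the chloride channels that carry fast inhibition, and on glutamate receptors, and immune genes of glia respond to it. The 72 h harvest asks which differences in transcript level are present once the first days of withdrawal have passed.

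Values are log2 expression values of 45037 Affymetrix probe sets, each of which combines several short probes. Some probe sets carry the symbols of several genes. A difference of 1 on this scale is a doubling of signal. Arrays of the 12 mice had medians of 6.61 to 6.62 and correlated with one another at 0.989 to 0.998 over probe sets. The median SD between mice was 0.118 in the CIE group and 0.118 in the Ctrl group, against 0.115 to 0.183 in the 6 groups of the other harvests. By values that arrays hold exactly in common, 47 arrays fell into 6 sets, and each set held 1 CIE and 1 Ctrl mouse of 72 h. They are called hybridization sets here, but no label gives the batch, and whether they match it could not be checked. Genes of hippocampal subfields were well above the array median: C1ql2 and Prox1, of dentate granule cells, averaged 10.28 and 9.24 in CIE mice, against 9.66 and 9.01 in Ctrl mice. Ctrl mouse 24 stood apart with the lowest dentate genes (C1ql2 at 8.18, Prox1 at 7.88 and Tdo2 at 7.86) and the highest Fibcd1 (10.07) and Spink8 (10.89), which are genes of CA1 pyramidal cells. Its part in the results below was measured by leaving it out.

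At 72 h, 3 probe sets differed between CIE and Ctrl mice at a false discovery rate (FDR) of 0.01, which is 0.00666% of the 45037 tested: 2 were higher (0.00444%) and 1 was lower (0.00222%) in CIE mice. Fam81a was the only named gene among them, and it fell. Both probe sets that rose, 1444164_at and 1455869_at, have no gene symbol in the platform annotation. In each of the 3, all 6 CIE values lay on one side of all 6 Ctrl values, as did 1.41% of all probe sets.

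Probe set 1444164_at measured 6.48, 6.71, 6.87, 7.01, 6.89 and 7.08 in the CIE mice of hybridization sets 1 to 6, against 6.34, 6.16, 5.84, 6.20, 6.16 and 5.90 in the Ctrl mice of the same sets. The lowest CIE mouse thus stood just above the highest Ctrl mouse, and both were in set 1. The difference was 0.74 on the log2 scale (SE 0.11, 95% interval 0.52 to 0.96, limma, adjusted p = 0.00107), a 1.67-fold higher signal, and within sets it ranged between 0.14 and 1.18. The CIE minus Ctrl difference of this probe set was -0.03 at 0 h, 0.33 at 8 h and 0.08 at 7 d, none called (limma, adjusted p = 0.908, 0.0664 and 0.76).

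Probe set 1455869_at measured 7.81, 8.06, 8.02, 7.85, 8.02 and 7.97 in CIE mice and 7.50, 6.63, 6.00, 6.73, 6.25 and 6.49 in Ctrl mice. The CIE mice were close together (SD 0.10), while the Ctrl mice spread widely (SD 0.51). The difference of 1.35 (SE 0.23, limma, adjusted p = 0.00941) was a 2.56-fold higher signal. Its values at 0 h, 8 h and 7 d were 0.07, -0.00 and -0.25, and none was called.

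Fam81a (1425213_at) measured 10.87, 11.12, 10.85, 10.76, 10.88 and 10.65 in CIE mice and 11.59, 11.34, 11.70, 11.44, 11.49 and 11.65 in Ctrl mice. Every CIE mouse was below every Ctrl mouse, and in each of the 6 sets the CIE mouse was lower, with differences of -1.0 to -0.22. The difference was -0.68 (SE 0.11, limma, adjusted p = 0.00673), a 1.60-fold lower signal. Fam81a was lower at the other harvests too: it fell at 7 d (-0.52, limma, adjusted p = 0.0049), and measured -0.45 at 8 h (adjusted p = 0.0106) and -0.30 at 0 h (adjusted p = 0.103), which were not called.

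Leaving out 1 mouse at a time gave 0 to 10 called probe sets: 0 without CIE mouse 71, Ctrl mouse 24 or Ctrl mouse 68, and 10 without CIE mouse 3. Of these 12 omissions, 1444164_at remained called in 9, Fam81a in 3 and 1455869_at in 2. The largest adjusted p reached in this way was 0.0114 for 1444164_at, 0.0431 for Fam81a and 0.0431 for 1455869_at. With hybridization sets as a block, 1444164_at remained called (limma, adjusted p = 0.00493), and Fam81a (0.0189) and 1455869_at (0.0171) did not. At the median SE of 0.082, a difference of 0.48 (1.39-fold) was needed to be called.

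**Figure D1:**
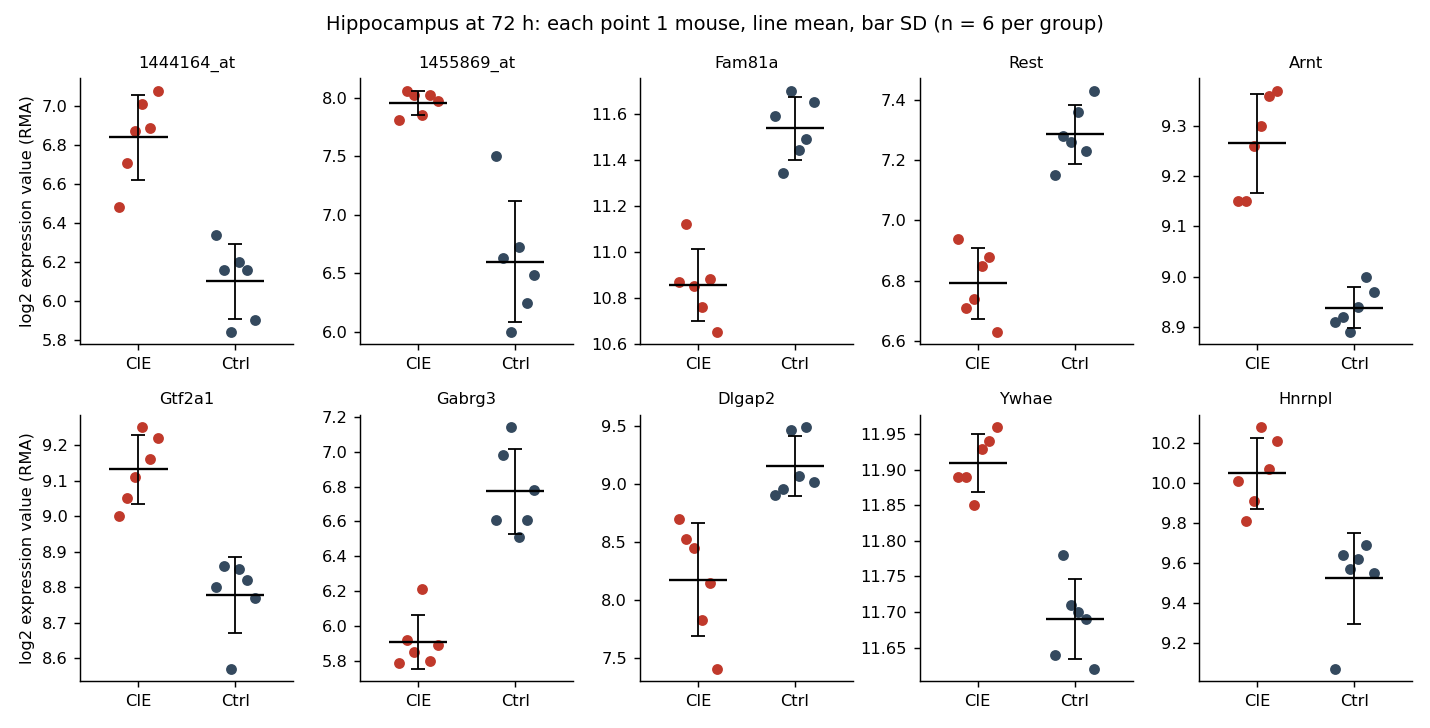
Log2 expression value of each of the 12 mice at 72 h (y axis) for the 3 called probe sets and 7 genes with an adjusted p between 0.01 and 0.05, CIE mice on the left and Ctrl mice on the right. Points are mice, lines are means and bars are SD (n = 6 per group). The y axes do not start at 0. In all 10 panels the CIE and Ctrl mice do not overlap, and the probe sets were chosen by their p in these same mice.

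At an FDR of 0.05, which allows more false calls, 50 probe sets differed (0.111% of those tested): 19 were higher (0.0422%) and 31 lower (0.0688%) in CIE mice. They carried 42 gene symbols, with 6 probe sets unnamed. In 45 of the 50 the groups did not overlap, against 1.41% of all probe sets. In 48 the CIE mouse lay on the same side of the Ctrl mouse in all 6 hybridization sets, which was not counted elsewhere. The 50 were chosen by their p in these same mice, so neither count is separate support. Taking 1 probe set per gene, 21 of 18193 genes (0.115%) were in this range, 9 higher and 12 lower. The count depended on single mice: it was 3 without CIE mouse 71, 6 without CIE mouse 35 or 61, 11, 14, 18 and 26 without Ctrl mouse 24, 44, 68 or 52, 25 without CIE mouse 33 and 38 to 73 without any other 1 mouse. In the 12 arrays of 72 h alone 177 probe sets passed this FDR, 37 of them among the 50. With sets as a block in those 12 arrays 4 passed, and 0 of the 50 did. In the fit across harvests with sets as a block 20 probe sets passed this FDR, 19 of them among the 50. Genes described next that did not pass in that fit included Dlgap2 (limma, adjusted p = 0.122), Brd2 (0.118), Csnk2a2 (0.11), Hnrnpl (0.0963) and Nceh1 (0.0918). Irf2bp2 (0.0809), Dtx3 (0.0705), Tbpl1 (0.0692), Chd1 (0.0692), Hbegf (0.0668) and Ube2d1 (0.0612) did not pass there either. Apart from Fam81a, the genes described next did not pass the FDR of 0.01, and their values are given as such.

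Leading genes that act in transcription were grouped after their values were seen. Rest encodes a repressor of neuronal genes. Its probe set 1425565_at measured 6.94, 6.71, 6.74, 6.85, 6.88 and 6.63 in CIE mice and 7.15, 7.28, 7.26, 7.36, 7.23 and 7.43 in Ctrl mice, with no overlap (-0.49, SE 0.09, limma, adjusted p = 0.0167). Arnt, the partner of hypoxia-inducible factors and of the aryl hydrocarbon receptor, measured 9.15 to 9.37 (median 9.28) in CIE mice and 8.89 to 9.00 (median 8.93) in Ctrl mice, a difference of 0.33 (SE 0.06, limma, adjusted p = 0.0167). With hybridization sets as a block, Arnt passed the FDR of 0.01 (adjusted p = 0.00927).

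Among further genes that act in transcription, 4 had higher values in CIE mice. Gtf2a1, a subunit of the general factor TFIIA, averaged 9.13 ± 0.10 in CIE mice and 8.78 ± 0.11 in Ctrl mice (SD, n = 6 each, difference 0.35). Gabpb1, a subunit of an ETS-family activator, averaged 6.85 ± 0.10 in CIE mice and 6.53 ± 0.10 in Ctrl mice (difference 0.32). Tbpl1, a relative of the TATA-binding protein, and Chd1, a chromatin remodeler, differed by 0.24 and 0.33. All 4 were without overlap between the groups. Lower in CIE mice were Brd2, which binds acetylated histones (-0.35, adjusted p = 0.0488), and the corepressor gene Irf2bp2 (-0.41, limma, adjusted p = 0.0269). Irf2bp2 overlapped in a single pair of mice, since CIE mouse 3 had 10.15 and Ctrl mouse 6 had 10.00.

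Leading genes with roles at synapses or in neurons were likewise grouped after their values were seen. Gabrg3, the gamma-3 subunit of GABA-A receptors, measured 5.79, 5.92, 5.85, 6.21, 5.80 and 5.89 in CIE mice and 6.61, 6.98, 7.14, 6.51, 6.61 and 6.78 in Ctrl mice. The gap between the groups was 0.30, and the difference was -0.86 (SE 0.16, limma, adjusted p = 0.0167), 1.82-fold. Dlgap2, a scaffold protein of the postsynaptic density, measured 8.70, 8.53, 8.45, 7.83, 8.15 and 7.41 in CIE mice and 8.91, 8.96, 9.47, 9.07, 9.49 and 9.02 in Ctrl mice. Here the CIE mice spread more than the Ctrl mice (SD 0.49 and 0.26), and the difference was -0.97 (SE 0.22, limma, adjusted p = 0.0495). The lowest CIE mice were 35, 61 and 71, which were also low in variable probe sets of Malat1, described below, and in a fit that held Malat1 constant the difference was -0.51 (adjusted p = 0.0703). Nav1, which acts on microtubules of growing neurites, was lower by 0.38 and B3galt1, a glycosyltransferase gene, by 0.50. Ywhae, the 14-3-3 epsilon adaptor, was higher by 0.22, with means of 11.91 ± 0.04 in CIE mice and 11.69 ± 0.05 in Ctrl mice (SD, n = 6 each).

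The remaining leading genes had other roles. Ube2d1, a ubiquitin-conjugating enzyme, was higher by 0.39 and Dtx3, a ubiquitin ligase gene of the Deltex family, by 0.23. Hnrnpl, a splicing regulator, averaged 10.05 ± 0.18 in CIE mice and 9.53 ± 0.23 in Ctrl mice (SD, n = 6 each, difference 0.52, limma, adjusted p = 0.0394). The growth factor gene Hbegf, a ligand of the EGF receptor, was lower by 0.49 (adjusted p = 0.0253), the cholesterol ester hydrolase Nceh1 by 0.46, the casein kinase 2 subunit Csnk2a2 by 0.24 and the membrane-scission adaptor Pdcd6ip by 0.30. The kinase gene Dyrk1a, last of the 10 higher genes chosen by p, differed by 0.25 (limma, adjusted p = 0.0714).

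Several leading probe sets were not matched by other probe sets of their gene. Of the 40 leading probe sets whose gene had others, 14 had at least 1 further probe set with the same sign at an unadjusted p under 0.05, and 26 had none. Arnt and Ywhae were among those matched: 3 of the 4 other Arnt probe sets and 2 of the 3 other Ywhae probe sets were higher at that level. For Rest, the 3 other probe sets differed by -0.08 to 0.04. For Gabrg3, the 3 others differed by -0.07 to 0.18, and the one at 0.18 had an unadjusted p of 0.0284 in the opposite direction at a low level (4.31 in CIE mice and 4.13 in Ctrl mice).

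Of the 4 leading probe sets with the largest lower differences, that of Dlgap2 had no other probe set, and the other 3, named here after their values were seen, were not matched. Ptp4a2 (1435129_at, a phosphatase gene) differed by -1.05, Usp1 (1423674_at, a deubiquitinase gene) by -1.11 and Rdx (1416180_a_at, radixin, a linker of membrane and actin) by -0.95, with adjusted p = 0.0167, 0.0182 and 0.0216 (limma). The other probe sets of Ptp4a2 differed by -0.07 to 0.08, those of Usp1 by -0.02 to 0.06 and those of Rdx by -0.08 to 0.07. Among CIE mice, these probe sets were low where the most variable probe sets of Malat1, an abundant noncoding RNA of the nucleus, were low. Malat1 (1418188_a_at) measured 11.39, 11.10, 11.07, 9.57, 9.92 and 9.35 in the CIE mice of sets 1 to 6 and 10.44, 11.31, 11.60, 11.71, 11.72 and 11.69 in the Ctrl mice. Ptp4a2 measured 9.87, 9.63, 9.66, 8.83, 8.96 and 8.74 in the same CIE mice and 9.89, 10.19, 10.32, 10.46, 10.57 and 10.54 in the Ctrl mice. The 3 CIE mice lowest in this Malat1 probe set, 35, 61 and 71, were also the 3 lowest CIE mice in Ptp4a2, Usp1 and Rdx. Ctrl mouse 6 was the lowest Ctrl mouse in Malat1 and in Ptp4a2, but not in Usp1 (8.79) or Rdx (9.54).

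Malat1 itself overlapped between the groups in 1418188_a_at and was not called (-1.01, SE 0.42, limma, adjusted p = 0.417). Its 7 probe sets did not go together. The 3 that varied most over all arrays differed by -1.10 to -1.01 at 72 h, while 1429060_at (11.41 in CIE mice and 11.39 in Ctrl mice) and 1436202_at (10.49 in CIE mice and 10.44 in Ctrl mice), of like signal, differed by 0.01 and 0.05, and the dimmer 1452378_at and 1427285_s_at by -0.56 and -0.15. Averaged over the 3 most variable probe sets, Malat1 was 11.05, 10.22, 10.17 and 10.93 in CIE mice at 0 h, 8 h, 72 h and 7 d, against 12.52, 10.95, 11.22 and 12.37 in Ctrl mice, so this mean was below Ctrl at all 4 harvests. In a fit that held this Malat1 mean constant, chosen after seeing the data, all 50 leading probe sets kept their sign. In that fit the lower ones kept a median of 0.724 times the difference of the fit without it, and the higher ones 0.937 times. The unnamed 1444164_at (0.72, adjusted p = 0.00183) and 1455869_at (1.33, adjusted p = 0.00978) remained called, Fam81a did not (-0.53, limma, adjusted p = 0.0121), and 17 probe sets were called in all. Of the 50, 22 passed the FDR of 0.05 in that fit and 5 the FDR of 0.01. Measures of RNA quality were not analysed here. Why the Malat1 probe sets disagree was not tested.

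**Figure D2:**
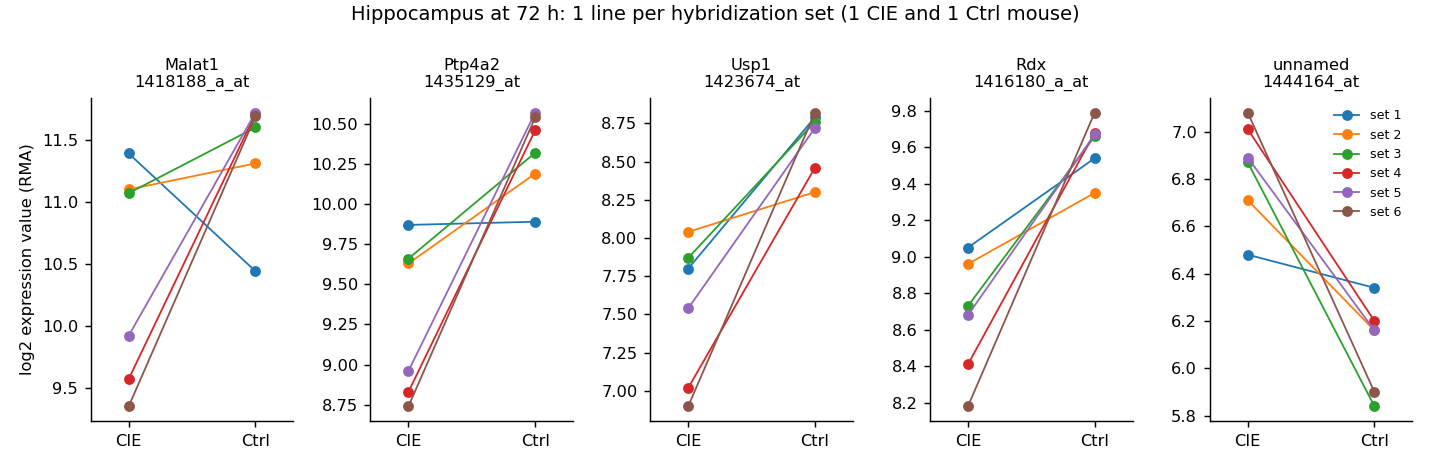
Log2 expression value (y axis) of Malat1, of the leading probe sets of Ptp4a2, Usp1 and Rdx, and of 1444164_at at 72 h. Each line joins the CIE mouse (left) and the Ctrl mouse (right) of 1 hybridization set. Malat1 (1418188_a_at) is lower in the CIE mouse in 5 of 6 sets and higher in set 1, where Ptp4a2 differs by only -0.02.

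The same probe sets were then read in the mice of the other harvests, which share no animal with 72 h. Of the 50, 43 had the same sign at 0 h, 49 at 8 h and 47 at 7 d, against 55.2%, 58.6% and 59.9% of all probe sets. At an FDR of 0.01, 2 of the 50 were called in the same direction at 0 h, 21 at 8 h and 19 at 7 d, and 0 in the opposite direction, where 1.92%, 2.15% and 1.34% of all probe sets were called. The 31 lower probe sets had a median of -0.59 at 72 h, and of -0.21, -0.44 and -0.44 at the harvests of 0 h, 8 h and 7 d. The harvests share the hybridization sets and the lower mean of the variable Malat1 probe sets in CIE mice, and the part of either in this likeness was not tested. They also share 1 estimate of the spread for each probe set. Choice by p at 72 h favours probe sets with a small spread, so the shares over all probe sets are not a matched background.

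Individual genes differed in this respect. Dlgap2 fell at 8 h (-1.01, limma, adjusted p = 0.00287) and at 7 d (-1.0, adjusted p = 0.00577), close to its -0.97 at 72 h. Gabrg3 fell at 7 d (-1.0, adjusted p = 0.00071) and measured -0.55 at 8 h and -0.12 at 0 h. Gtf2a1 rose at 0 h, 8 h and 7 d, by 0.30, 0.45 and 0.40, around its 0.35 at 72 h. Rest, Arnt, Ube2d1, Tbpl1, Dtx3, Hbegf and Hnrnpl were called at none of the other harvests. None of the 50 probe sets passed the test of a difference between the 72 h effect and the effect at another harvest, so a change confined to 72 h was not shown for any of them.

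**Figure D3:**
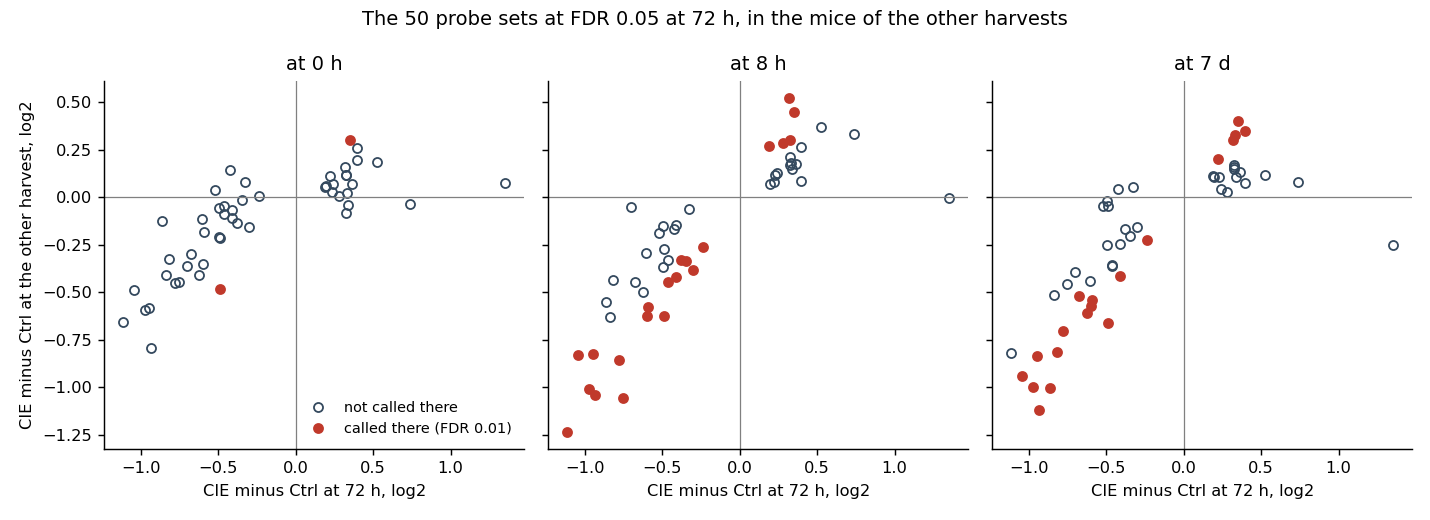
The 50 probe sets at an FDR of 0.05 at 72 h: CIE minus Ctrl at 72 h (x axis, log2) against CIE minus Ctrl at 0 h, 8 h and 7 d (y axis, log2), 1 point per probe set. Filled points were called at the other harvest at an FDR of 0.01: 2 at 0 h, 21 at 8 h and 19 at 7 d. The gap around 0 on the x axis comes from the choice of the probe sets by their 72 h value.

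The genes that CIE changed at other harvests were read at 72 h, first those that rose. Taking 1 probe set per gene, 231 genes rose at 0 h (1.27% of those tested) with a median of 0.39, and the same genes had a median of 0.01 at 72 h, where 123 of them (53.2%) were above 0, against 57.0% of all genes. The 300 genes that rose at 8 h (1.65%, median 0.38) had a median of 0.07 at 72 h, and 218 (72.7%) were above 0. The 160 genes that rose at 7 d (0.879%, median 0.44) had a median of 0.03 at 72 h. The 72 h interval left out the value of the other harvest for 226 of the 231 genes and 275 of the 300. These genes were chosen for large values there, and the interval leaves out the error of the other harvest. The test of the difference between harvests called 5 of the 231 and 3 of the 300 at an FDR of 0.01. Among all genes it called 0.0275% and 0.0165%.

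Genes that fell at the other harvests were read in the same way. The 68 genes that fell at 0 h (0.374%, median -0.43) had a median of -0.03, the 120 that fell at 8 h (0.66%, median -0.30) a median of -0.07, and the 30 that fell at 7 d (0.165%, median -0.47) a median of -0.18. Of these, 41, 94 and 25 were below 0 at 72 h (60.3%, 78.3% and 83.3%), against 43.0% of all genes. With the most variable probe set of each gene in place of the brightest, the 72 h medians were -0.23 for genes that fell at 0 h and -0.45 for genes that fell at 7 d. Fam81a was the only gene of the 6 groups that was also called at 72 h. Of genes with large falls at 0 h, Zbtb7a measured -1.14 there and -0.83 at 72 h, without overlap (limma, adjusted p = 0.24). Gjc3 measured -1.32 and -0.70 (adjusted p = 0.348), and Zbed6 -1.08 and -0.65 (adjusted p = 0.337). Others were nearer 0 at 72 h: Shox2 measured -1.43 and 0.00, Otx2 -1.21 and -0.23, and Fos -1.33 and 0.21.

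Targets of glucocorticoid receptors that rose at 0 h and 8 h had 72 h differences near 0. Plin4, a coat protein of lipid droplets, measured 6.24, 6.02, 5.96, 6.10, 6.12 and 5.97 in CIE mice at 72 h and 6.17, 6.19, 6.10, 6.11, 6.23 and 5.85 in Ctrl mice. The groups overlapped fully, and the difference of -0.04 had a 95% interval of -0.32 to 0.23, against rises of 1.25 at 0 h and 1.13 at 8 h. The change of the CIE effect was -1.29 against 0 h (SE 0.19, limma, adjusted p = 0.00137) and -1.17 against 8 h (adjusted p = 0.0057). Tsc22d3 (1420772_a_at), a glucocorticoid-induced regulator of inflammation, measured -0.12 at 72 h (interval -0.33 to 0.09), -0.90 relative to its 8 h effect (SE 0.14, adjusted p = 0.0057). Over the 27 measured glucocorticoid-responsive genes, 0 were called at 72 h, where 0.0055% of all genes were. Of the 27, 9 were above 0 and the median was -0.05. At 0 h 11 had risen and at 8 h 9, against 1.27% and 1.65% of all genes.

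Genes of antigen presentation and of the interferon response also had 72 h differences near 0. H2-Aa, a chain of MHC class II, measured 5.38, 4.99, 5.74, 5.39, 4.86 and 5.63 in CIE mice at 72 h and 5.09, 5.31, 5.77, 5.32, 5.07 and 5.40 in Ctrl mice. The groups overlapped fully (0.00, interval -0.53 to 0.54), and the effect minus that at 8 h was -2.16 (SE 0.38, limma, adjusted p = 0.00606). The class II chain H2-Ab1 (1425477_x_at), chosen like other probe sets below after its values were seen, changed by -1.19 from 8 h (adjusted p = 0.00937). Cd74, the invariant chain, measured -0.01 at 72 h, against 1.21 at 0 h and 1.44 at 8 h. None of 12 MHC class I, 6 class II and 37 interferon-stimulated genes was called at 72 h, where 0.0055% of all genes were. Of these genes, 1, 0 and 0 had an unadjusted p under 0.05, where 5.2% of all genes were higher and 2.46% lower. Their medians were -0.10, -0.08 and -0.00, against 0.91, 1.69 and 0.61 at 8 h.

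In all, the CIE effect at 72 h differed from that at 0 h in 16 probe sets (0.0355%, with 5 higher at 0.0111% and 11 lower at 0.0244%) and from that at 8 h in 10 (0.0222%, with 1 higher at 0.00222% and 9 lower at 0.02%). In each of these 26 tests the 72 h effect was the smaller in size, at most 0.37. Against 0 h, lower effects were called for Txnip, an inhibitor of thioredoxin (-0.90, limma, adjusted p = 0.00775), the clock-controlled factor Dbp (-0.57 and -0.45 in its 2 probe sets), the peptidase Erap1 of antigen processing (-0.64), the IgG receptor gene Fcgr3 (-0.74), Ccnd3, a cyclin (-0.72), and Hif3a (-0.93). Fcgr2b, an inhibitory IgG receptor, was called against 0 h (-0.67) and 8 h (-0.75), and Depp1 against 8 h (-0.57). Higher at 72 h than at 0 h were the effects on Cbx5, a heterochromatin protein gene (0.46), and on the splicing factor gene Srsf3 (0.41). The probe sets of Ccnd3, Hif3a, Fcgr2b, Depp1, Cbx5 and Srsf3 were named after their values were seen.

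With hybridization sets as a block, only Plin4 against 0 h stayed called (adjusted p = 0.00354), and 0 probe sets were called against 8 h. With sets as a random block, 0 were called against 0 h and 0 against 8 h, Plin4 included, and with array weights 29 and 256. Both block fits left out Ctrl mouse 2 of 0 h, which fell in no set, so its loss and the block were not told apart. Leaving out 1 mouse of 72 h gave 5 to 33 calls against 0 h and 0 to 12 against 8 h, with the fewest against 0 h without CIE mouse 61 or 71 and the most without CIE mouse 35. Against 8 h, 0 were called without CIE mouse 33, 1 without Ctrl mouse 24 and 2 without Ctrl mouse 16.

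**Figure D4:**
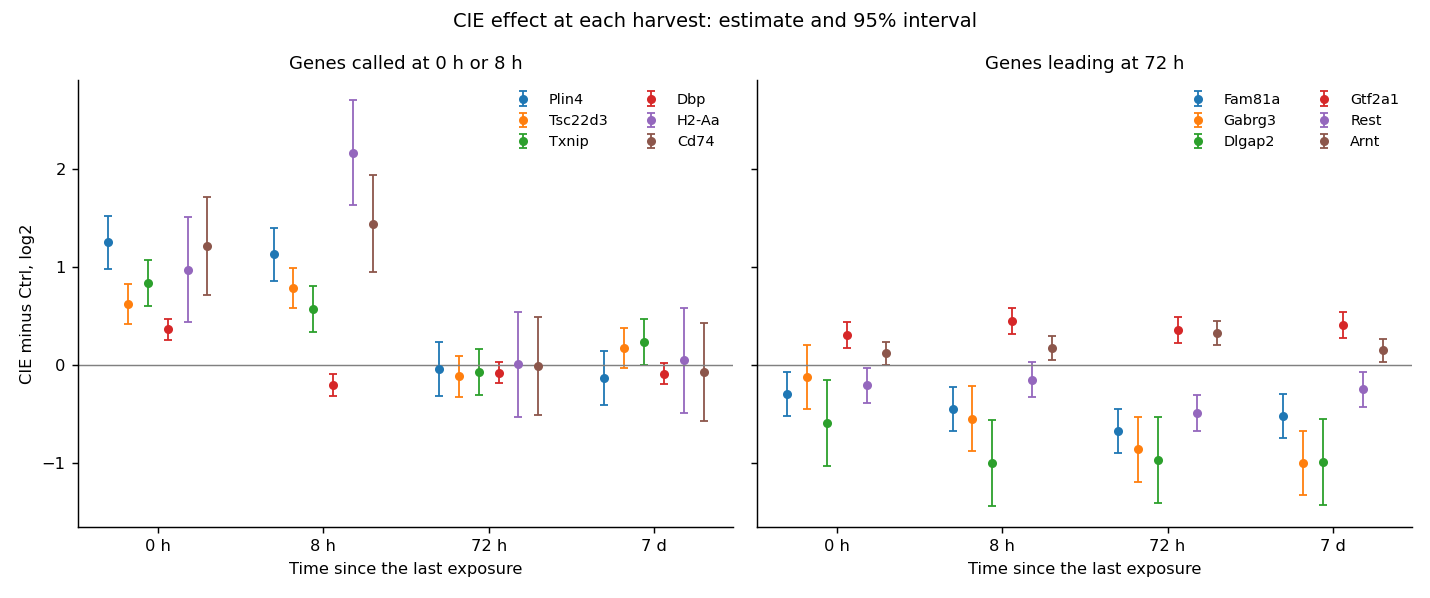
CIE minus Ctrl (y axis, log2) at 0 h, 8 h, 72 h and 7 d with 95% intervals of the fit, for 6 genes called at 0 h or 8 h (left) and 6 genes leading at 72 h (right). At 72 h the intervals of Plin4, Tsc22d3, Txnip, Dbp, H2-Aa and Cd74 include 0, and those of Fam81a, Gabrg3, Dlgap2, Gtf2a1, Rest and Arnt do not. The genes were chosen for these values.

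Between 72 h and 7 d no difference in the CIE effect was called (limma, smallest adjusted p = 0.0731), with 3789 probe sets at an unadjusted p under 0.05 (8.41%). The smallest p among genes belonged to Zfp217, a transcription factor gene, whose effect was -0.09 at 72 h and 0.52 at 7 d, and to the chemokine gene Ccl9, at -0.27 and 0.52. The growth factor gene Bmp4 was lower in CIE mice at 72 h (-0.36) where it measured 0.54, 0.43 and 0.50 at 0 h, 8 h and 7 d. The nicotinic receptor subunit Chrna5, which rose by 1.86 at 7 d, measured 0.06 at 72 h, but with an interval of -0.74 to 0.86. The dopamine receptor Drd1, which fell by 1.43 at 7 d, measured 0.52 (interval -0.08 to 1.11), with mice spread between 8.20 and 9.04 in the CIE group and 7.37 and 9.27 in the Ctrl group.

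No member of a gene list was called at 72 h: across 52 lists holding 796 measured genes, 0 members passed the FDR of 0.01. Of all 18193 genes only 1 did (0.0055%), so the absence of calls sets no list apart. The lists are therefore described by unadjusted counts, for which 5.2% of all genes were higher and 2.46% lower at p under 0.05, with a median of 0.01 over all genes. Of 44 splicing factor genes, 14 were higher and 1 was lower at that level, 36 were above 0 and the median was 0.09. Ddx5, an RNA helicase of the spliceosome, measured 12.82 to 12.89 in CIE mice and 12.68 to 12.76 in Ctrl mice (0.13, limma, adjusted p = 0.187), a small difference without overlap. Srrm2, a scaffold of nuclear speckles, went the other way (-0.44, adjusted p = 0.233), and was lowest in CIE mice 35, 61 and 71, the mice low in the variable Malat1 probe sets.

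No gene of cholesterol synthesis was called. Of 20 measured, 6 were lower and 0 higher at an unadjusted p under 0.05, 16 were below 0 and the median was -0.13. Hmgcs1, an early enzyme of the pathway, measured 12.32, 12.43, 12.29, 12.49, 12.25 and 12.26 in CIE mice and 12.58, 12.59, 12.63, 12.58, 12.58 and 12.60 in Ctrl mice. The groups did not overlap, yet the fit across all harvests gave -0.25 (SE 0.08, limma, adjusted p = 0.208). The sterol oxidase Msmo1 was likewise without overlap (10.39 to 10.54 in CIE mice, 10.64 to 10.74 in Ctrl mice, -0.23, adjusted p = 0.303), and Lss, which forms lanosterol, differed by -0.20. The leading Nceh1, which was in none of the lists, also acts on cholesterol esters.

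Stress and activity genes had small differences, none of them called. Sdf2l1, of the chaperones of the endoplasmic reticulum, measured 0.36 at 72 h (limma, adjusted p = 0.128) after a rise of 0.53 at 8 h. Its list had 3 of 26 genes higher and 0 lower, with a median of 0.07. Of 30 immediate early and activity genes, 3 were higher, 0 lower and 23 above 0 (median 0.12). Among them Fosb measured 0.33 and the phosphatase Dusp4 0.42, whereas Fos, which fell by 1.33 at 0 h, measured 0.21 with an interval of -0.23 to 0.65. Of 17 genes of the antioxidant response, 3 were higher, among them Txnrd1 without overlap (0.22, adjusted p = 0.182), and 4 lower, among them Gsta4 (-0.31).

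Receptor and synapse lists held few differences outside the genes named. Of 9 GABA-A receptor subunits, only Gabrg3 had an unadjusted p under 0.05 and the median was 0.01. Of 12 AMPA and kainate receptor genes 11 were above 0 (median 0.08), 1 of them at that level. Dlgap2 was the only such member of 14 NMDA receptor and postsynaptic scaffold genes. Of 19 synaptic vesicle genes, 17 neuropeptide genes and 7 genes of corticosteroid receptors and corticotropin-releasing hormone signalling, 0 reached it. Rorb, a nuclear receptor of the clock list, measured 7.91 to 8.56 in CIE mice and 8.82 to 9.68 in Ctrl mice (-0.83, limma, adjusted p = 0.0657), and it fell at 7 d by 0.83. It too was lowest in CIE mice 35 and 71.

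Of 13 measured genes of the list of neural stem cells and proliferation, 0 were called at 72 h, 5 were above 0 and the median was -0.07, with 1 higher (Mcm5, 0.22) and 2 lower (Hes5 and Fabp7) at an unadjusted p under 0.05. These 2, and Nr2e1, which was not in the list, were named for their falls at 8 h. Hes5, a target of Notch, fell by 1.09 at 8 h and measured -0.36 at 72 h (limma, adjusted p = 0.477). Fabp7, a lipid carrier of radial glia, fell by 0.62 at 8 h and measured -0.25 at 72 h. Nr2e1 (Tlx), which maintains adult neural stem cells, fell by 0.67 at 8 h and measured 6.69 to 7.30 in CIE mice and 7.29 to 7.85 in Ctrl mice at 72 h (-0.54, adjusted p = 0.0779). All 3 were lower in the CIE mouse in 6 of 6 sets at 72 h. At 7 d they measured 0.00, 0.05 and 0.04.

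Lists of cell type markers held no called gene. Since whole tissue was measured, fewer cells of a type and less RNA per cell cannot be told apart. Of 21 microglial genes 3 were above 0 (median -0.10). Cx3cr1, the microglial fractalkine receptor, measured 8.72 to 9.24 in CIE mice and 9.41 to 9.62 in Ctrl mice without overlap (-0.41, limma, adjusted p = 0.196), and Itgam differed by -0.29. The mean of the list in each mouse was 8.82 to 9.05 in the CIE group and 8.91 to 9.16 in the Ctrl group, which overlap. Of 9 genes of oligodendrocyte precursors 0 were above 0 (median -0.15), with Gpr17, a receptor of differentiating precursors, at -0.43 (adjusted p = 0.0601). Of 16 genes of myelin and oligodendrocytes 1 was above 0 (median -0.12). At an unadjusted p under 0.05, 0 were higher and 1 was lower, Gjc3 (-0.70). Mbp, the myelin basic protein, measured 13.54 to 13.70 in CIE mice and 13.56 to 13.69 in Ctrl mice.

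Of 10 dentate granule cell genes, 9 were above 0 (median 0.36) and 0 had an unadjusted p under 0.05. Their mean was 8.76 to 9.38 in CIE mice and 7.82 to 9.18 in Ctrl mice, the lowest being Ctrl mouse 24, without which the median was 0.20. Of 7 CA1 genes 0 were above 0 (median -0.12), but without Ctrl mouse 24 the median was 0.07. Ttr, abundant in choroid plexus, measured 9.79 to 10.97 in CIE mice and 8.57 to 11.48 in Ctrl mice, with the list of 13 choroid plexus genes at a median of -0.00.

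**Figure D5:**
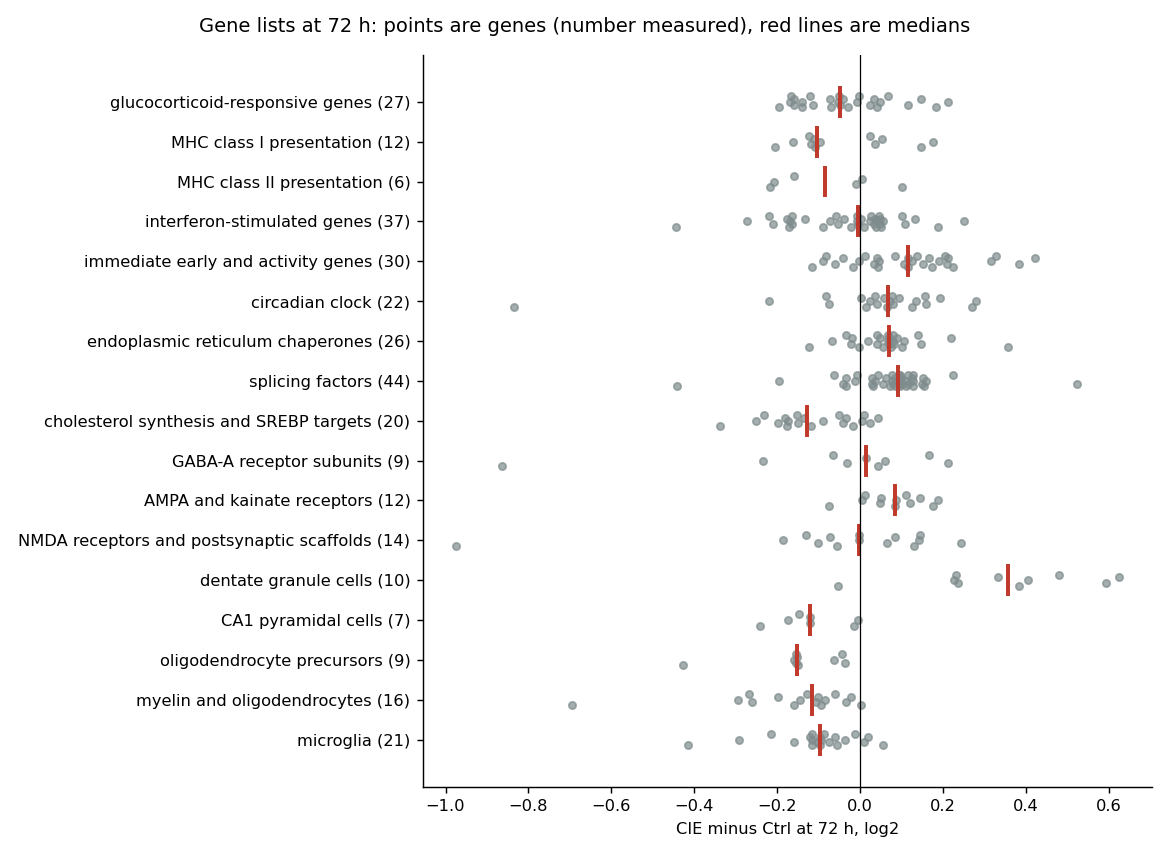
CIE minus Ctrl at 72 h (x axis, log2) of the genes in 17 lists (y axis, number of measured genes in parentheses). Points are genes and red lines are list medians. The medians lie between -0.15 (oligodendrocyte precursors) and 0.36 (dentate granule cells), and single genes at the left edge are Dlgap2, Gabrg3 and Rorb.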

How the data were processed

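Hippocampal RNA of 48 mice was hybridized to Affymetrix whole-genome mouse arrays. The deposited values are log2 expression values that the authors made by RMA within each hybridization batch, with a further quantile normalization over all arrays and ComBat correction for hybridization group (versions not given in the sources used here). ComBat had thus already removed batch means before the values were tested. The main fit kept 40 residual degrees of freedom and counted none for that removal, which can make its p-values too small. In the fit with sets as a random block, the correlation within sets was -0.117.

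One linear model with 8 groups was fitted to all arrays in R 4.3.3 with limma 3.58.1 (lmFit, eBayes), with CIE minus Ctrl at 72 h and its difference from the other harvests as contrasts. P-values were adjusted over all 45037 probe sets (Benjamini-Hochberg), called at an FDR of 0.01, and are two-sided. Pooling the spread over 48 arrays assumes that the groups vary alike.

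The platform table gave 1 symbol to 34945 probe sets, several to 932 and none to 9160. Each of 18193 genes was taken by its probe set with the highest mean. All called probe sets were named. Further names were drawn from the 10 genes with the smallest p in each direction and up to 3 members of each list with an unadjusted p under 0.05. They also came from the 5 largest rises and falls at the other harvests, the 10 genes with the smallest p in each difference, and tissue markers. Not every gene so chosen is described. The members and lists were chosen with earlier results of these data known. No label gave the hybridization batch, so sets were recovered from exactly equal values between arrays. The number of arrays limits the precision. The fit was tested on simulated data. Alternatives were other samples, blocks, weights, normalizations, filters and probe sets, and leaving out each mouse.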

Additional observations from a re-analysis of the deposited data

Results flagged for a closer look

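Single mice stood apart from the other 5 of their group at 72 h in 20 of 170 groups of values examined. Chance gives about 1 in 20 for independent groups. These probe sets were chosen from these data and several move together, so the count cannot be compared with that rate. Ctrl mouse 24 was the lowest Ctrl mouse in the dentate genes Prox1 (7.88, next 8.95), C1ql2 (8.18, next 9.63) and Tdo2 (7.86, next 9.30), in Gtf2a1 (8.57, next 8.77) and in Itgam (5.83, next 6.20), and the highest in Nceh1 (11.17, next 10.92). Ctrl mouse 6 was lowest in Malat1 (10.44, 10.35 and 5.77 in 3 probe sets) and in Hnrnpl (9.07, next 9.55).

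Among CIE mice, mouse 71 was lowest in Nceh1 (10.19), Pdcd6ip (9.42) and Cx3cr1 (8.72). Mouse 35 was highest in Gabrg3 (6.21) and Fcgr2b (7.27), and mouse 3 in Irf2bp2 (10.15). Mouse 61 was lowest in H2-Ab1 (4.77) and mouse 33 in Ccnd3 (6.40). Of the Ctrl mice, 68 was lowest in Plin4 (5.85) and 44 in Bmp4 (5.78).

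The CIE effect at 72 h differed from that at another harvest by the test of the difference (limma, FDR of 0.01). Minus the effect at 0 h it was -1.29 for Plin4, -0.935 for Hif3a, -0.905 for Txnip, -0.742 for Fcgr3, -0.719 for Ccnd3, -0.672 for Fcgr2b, -0.641 for Erap1, -0.566 and -0.447 for the probe sets of Dbp, 0.459 for Cbx5 and 0.407 for Srsf3. Minus the effect at 8 h it was -2.16 for H2-Aa, -1.19 for H2-Ab1, -1.17 for Plin4, -1.07 and -0.903 for the probe sets of Tsc22d3, -0.75 for Fcgr2b and -0.571 for Depp1.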

How the results depend on the processing

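At 72 h, 3 probe sets were called, and the same 3 with quantile or median normalization or the filter on dim probe sets. With sets as a fixed block 2 were called, 1 of the 3 and Arnt, and with a variance trend 2, both of the 3. The count was 0 with only the 12 arrays of 72 h, where 177 probe sets passed an FDR of 0.05, 37 of the 50 among them. The count was also 0 with sets as a block in those arrays, where 4 passed an FDR of 0.05 and 0 of the 50 did. It was 1 with sets as a random block, 1 with 1 probe set per gene, 17 with the mean of the 3 most variable Malat1 probe sets as a covariate, 50 at an FDR of 0.05 and 91 with array weights, which gave Ctrl mouse 24 a weight of 0.637. Leaving out 1 mouse gave 0 to 10. The 16 differences from 0 h were 1 with sets as a block, 0 as a random block, 29 with array weights, 37 among probe sets with a mean of 6 or more, 50 with the Malat1 covariate, 156 at an FDR of 0.05 and 5 to 33 without 1 mouse. The 10 differences from 8 h were 0, 0, 256, 6 and 58 under the block, the random block, array weights, the filter and an FDR of 0.05, and 0 to 12 without 1 mouse. Against 7 d the count was 0, or 0 to 1 without 1 mouse (1 without CIE mouse 35). With the most variable probe set per gene, the 72 h median of genes that fell at 0 h was -0.23 (-0.03 with the brightest) and of those that fell at 7 d -0.45 (-0.18). The cause of these changes was not tested. No called probe set changed sign, but uncalled values near 0 did on leaving out 1 mouse, among them medians: -0.24 to 0.07 for CA1 genes, -0.13 to 0.03 for MHC class II, and -0.01 to 0.02 and -0.01 to 0.05 for genes higher at 0 h and 7 d. Mouse numbers are unique to each mouse, so the block of hybridization sets was the only pairing of CIE with Ctrl mice. The Malat1 fit, and weights and random block for the differences, were chosen after seeing the data.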

Other observations

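Lists not described above had few differences at 72 h. Of 41 oxidative phosphorylation subunits, 30 cytosolic ribosomal proteins and 17 astrocyte genes, 0 had an unadjusted p under 0.05, with medians of -0.02, -0.01 and -0.03. Of 31 proteasome subunits 1 was higher and 3 were lower at that level (median 0.00). Of 9 genes of infiltrating leukocytes 8 were above 0 (median 0.10), and their mean was 6.13 to 6.44 in CIE mice and 5.98 to 6.23 in Ctrl mice.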
